A study of Mus musculus with 3 samples.

Results

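Translation initiation and elongation factors were examined in sorted mouse lung macrophages over 24 h of acute injury by inhaled lipopolysaccharide (LPS). The members are the genes whose symbol in the deposited tables is Eif or Eef followed by a digit, leaving out the Eif2ak kinases and the sex-linked Eif2s3x and Eif2s3y. This gave 57 of 12880 genes, all with a value in each of the 3 libraries. Of these, 53 are translation factors or their direct regulators, and 4 (Eif2c1 to Eif2c4) are Argonautes, the microRNA-binding proteins now named Ago1 to Ago4, which only share an older symbol with the eIF2 family. The animals were LysM-GFP reporter mice of the C57BL/6 strain, 6 to 8 weeks old, in which green fluorescence is driven from the lysozyme M locus of myeloid cells. LPS, a part of the Gram-negative outer membrane that TLR4 senses, was nebulized in saline at 1 mg/ml. Cells positive for GFP and for the Fc receptor CD64 and negative for the neutrophil antigen Ly6g were sorted at 0, 4 and 24 h. For every library a digestion of 50 min at 37 °C is recorded. The deposited signal columns are headed GFP_CD11b with the time, and CD11b is not among the sort markers given here. Each time has 1 library, and the treatment is described in the same words for all of them. The labels do not say whether the 0 h mice had been exposed, how many animals went into a library, or whether animals were pooled.

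Protein synthesis starts when the cap-binding complex eIF4F (the cap-binding protein eIF4E, the helicase eIF4A and the scaffold eIF4G) loads an mRNA onto a small ribosomal subunit that already carries eIF1, eIF1A, eIF3 and the ternary complex of eIF2 with initiator tRNA. The complex scans to the start codon, eIF5 and eIF5B release the factors and join the large subunit, and eEF1 and eEF2 then drive elongation. In activated macrophages this machinery is controlled through mTOR and the 4E-binding proteins, which sequester eIF4E, through kinases that phosphorylate eIF2 and block its exchange factor eIF2B, and through eEF2 kinase, which inhibits eEF2.

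The promoters of the cap complex are shown first, because a gene for each of its 3 core subunits holds the same hexamer and because the largest difference among the factors was in Eef2k. The RefSeq windows (GRCm38.p6) run from 250 bases before to 50 after the annotated start, 5′ to 3′, and capitals mark the hexamer CACGTG, the E-box bound by MYC and related factors, which reads the same on both strands. Eef2k has none, and its window is the one at the start that the deposited tables give.
Eif4e, chr3:138527018-138527317, plus strand: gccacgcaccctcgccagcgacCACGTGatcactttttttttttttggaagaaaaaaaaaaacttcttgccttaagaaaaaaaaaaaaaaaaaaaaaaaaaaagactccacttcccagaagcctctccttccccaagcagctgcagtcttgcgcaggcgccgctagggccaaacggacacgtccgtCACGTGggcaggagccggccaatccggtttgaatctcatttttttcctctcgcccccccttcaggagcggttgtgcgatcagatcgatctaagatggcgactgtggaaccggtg
Eif4a1, chr11:69672374-69672673, minus strand: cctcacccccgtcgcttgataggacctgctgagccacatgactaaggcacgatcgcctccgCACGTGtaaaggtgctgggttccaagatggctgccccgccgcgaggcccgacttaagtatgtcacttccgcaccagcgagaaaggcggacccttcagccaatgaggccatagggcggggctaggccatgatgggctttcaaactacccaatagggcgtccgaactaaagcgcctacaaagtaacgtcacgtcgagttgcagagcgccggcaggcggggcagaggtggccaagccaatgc
Eif4g1, chr16:20672477-20672776, plus strand: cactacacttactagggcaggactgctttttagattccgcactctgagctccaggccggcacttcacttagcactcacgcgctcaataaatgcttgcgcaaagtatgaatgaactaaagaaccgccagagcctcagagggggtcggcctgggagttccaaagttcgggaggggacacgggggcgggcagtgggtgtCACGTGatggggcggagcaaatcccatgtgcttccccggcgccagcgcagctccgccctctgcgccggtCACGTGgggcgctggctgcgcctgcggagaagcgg
Eef2k, chr7:120850939-120851238, plus strand: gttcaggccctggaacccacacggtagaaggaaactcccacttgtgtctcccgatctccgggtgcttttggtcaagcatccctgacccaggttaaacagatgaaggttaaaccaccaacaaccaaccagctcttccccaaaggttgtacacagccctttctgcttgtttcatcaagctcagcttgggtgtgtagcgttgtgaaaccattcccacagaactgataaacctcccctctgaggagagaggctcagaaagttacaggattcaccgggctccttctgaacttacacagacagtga

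Of the 43 members with a RefSeq window at their location, 10 held CACGTG, a share of 23.3%, against 7.09% of all 27025 promoters of the same length. The other cap complex genes with a window, Eif4a2, Eif4e2 and Eif4g3, held none. The 10 were Eef2, Eif1b, Eif3a, Eif3f, Eif3k, Eif4a1, Eif4e, Eif4g1, Eif4h and Eif5a2. The ETS-family motif CCGGAAG, searched on both strands, was found in 16 of the 43, a share of 37.2%, against 9.08% of all promoters, and both motifs, which cannot overlap each other, occurred in Eif1b and Eif5a2. These matches describe letters and not bound sites. The shares are not over windows chosen alike. A member took the window nearest its deposited start, whereas the share of all promoters used the window of lowest coordinate of each gene. All promoters also cover genes without a value in these data, and the 43 include the Argonautes Eif2c1, Eif2c3 and Eif2c4. Members with CACGTG had log2 ratios between -0.27 and 0.77 at 4 h against 0 h (median 0.19, 3 of 10 at least 1.5-fold higher and 0 lower, where 25.4% of all genes were higher and 23.7% lower), and the 33 without it ranged from -2.24 to 1.25 (median 0.05, 6 higher and 3 lower). Members without a window, among them Eif4e3, Eif1a, Eef1d and Eif2c2, are in neither group.

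Levels below are normalized counts, whole reads divided by a size factor that puts the 3 libraries on a common scale. Folds are plain ratios of these counts with a 95% exact counting interval. The interval covers counting error only, and no fold has a replicate check, so "higher" and "lower" describe libraries and not conditions. A gene is called past the threshold at a ratio of at least 1.5-fold. The libraries held 24825976, 20379236 and 25135476 reads in order of time, of which the members took 1.25%, 1.23% and 1.45%. The lowest member count was 82 reads, for Eef2k at 4 h. In bulk RNA, fewer cells of a type and less RNA per cell cannot be told apart. Markers of the cells in the sort shifted as well. The summed normalized counts of 13 alveolar macrophage markers were 749786, 282187 and 420211 at 0, 4 and 24 h. Relative to 0 h, 11 were at least 1.5-fold lower and 1 higher at 4 h, and 6 were lower and 0 higher at 24 h. Those of 8 classical monocyte markers were 96854, 433989 and 63456, all 8 higher at 4 h. At 24 h, 7 were higher and 1 lower, and the lower marker brought the sum below that at 0 h. The summed counts of 9 neutrophil markers were 5018, 39659 and 8025, all 9 higher at 4 h, and 5 higher and 1 lower at 24 h. The 2 measured erythroid markers summed to 51, 1130 and 1769, and both were higher than at 0 h at 4 and 24 h. No measured marker of these lists was at 0 in any library, and the part of these shifts in the results was not tested. The libraries also differed in sex-linked transcripts. Xist, transcribed from the inactive X chromosome, had 13705, 4 and 1 reads, and the Y-linked Ddx3y had 4, 3994 and 2357, so that the sex of the cells and the time cannot be told apart in comparisons with 0 h. The X-linked member is Eif1ax, and of the other translation control genes named below Fmr1 and Gspt2 are X-linked.

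The 4 h library held more initiation factors above their 0 h level than below it, led by Eif4e3 and Eif1a, while Eef2k, Eif2d and Eef1d stood well below. Of the 57 members, 13 were 1.5-fold or more higher and 4 lower, 29.8% in all, against 49.0% of all 12512 genes with a value at both times (25.4% higher, 23.7% lower). The share was 42.4% among the 8548 genes with a mean read count at or above that of the lowest member. Both background shares lie above that of the members. At 2-fold, 4 members were higher and 2 lower, against 29.6% of all genes (15.2% higher, 14.3% lower). The members' median log2 ratio was 0.19, and that of all genes 0.00. The 46 initiation factors gave 12 higher and 1 lower, and the 7 elongation genes gave 0 higher and 2 lower. Scaling by total reads in place of size factors split the members into 7 higher and 7 lower, and the initiation factors into 6 and 4.

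**Figure D1:**
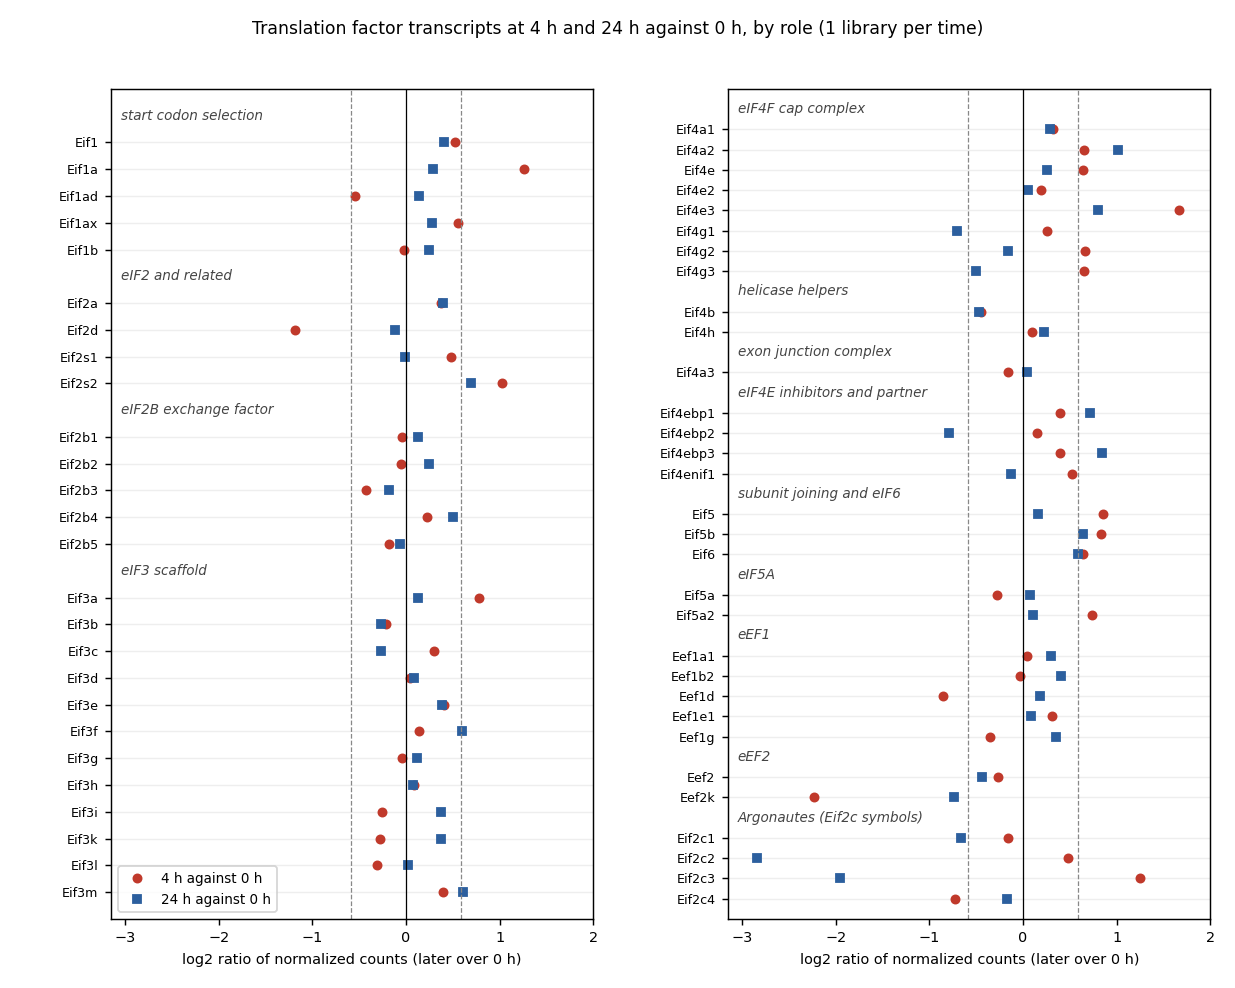
Log2 ratio of normalized counts at 4 h (red circles) and 24 h (blue squares), each over 0 h, for each of the 57 members, grouped by role. The solid line marks no difference and the dashed lines 1.5-fold. Eef2k lies furthest to the left at 4 h, and Eif2c2 and Eif2c3 at 24 h.

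The factors that set up start codon recognition were led by Eif1a, which encodes a form of eIF1A, the factor that occupies the decoding site during scanning. It stood at 1577, 3790.3 and 1929 normalized counts at 0, 4 and 24 h, 2.40-fold higher (2.26 to 2.55) at 4 h than at 0 h and 1.97-fold lower (1.86 to 2.08) at 24 h than at 4 h. The 4 h library alone was high. Its X-linked paralog Eif1ax stood at 877, 1286 and 1062, and Eif1, which guards against the wrong start codon, at 5719.8, 8241 and 7561. Both were highest at 4 h and neither passed the threshold at 4 h against 0 h, with 1.47-fold higher (1.34 to 1.6) for Eif1ax and 1.44-fold higher (1.39 to 1.49) for Eif1. Eif1b, a close paralog of Eif1, stood at 1052, 1036 and 1247, within 1.5-fold in every comparison. Eif1ad, an eIF1A-domain protein, had its lowest level at 4 h, at 768, 527 and 846, and was 1.61-fold higher (1.43 to 1.80) at 24 h than at 4 h.

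Subunits of eIF2 did not share 1 pattern. Eif2s2, the beta subunit, stood at 722, 1475 and 1170.1 normalized counts at 0, 4 and 24 h, 2.04-fold higher (1.86 to 2.24) at 4 h and 1.62-fold higher (1.48 to 1.77) at 24 h, each against 0 h. The alpha subunit Eif2s1, the site of stress phosphorylation, stood at 1779, 2480.3 and 1768 and stayed within 1.5-fold in all 3 comparisons. Eif2d, which recycles ribosomes and can deliver tRNA without eIF2, had its lowest level at 4 h, with 684, 299.6 and 629 normalized counts at 0, 4 and 24 h, 2.28-fold lower (1.97 to 2.65) at 4 h than at 0 h and 2.10-fold higher (1.81 to 2.44) at 24 h than at 4 h. Only the 4 h library was low for Eif2d. A row named Eif2a (1571, 2028 and 2067) carries the location and description of Eif2s1 in the tables but has other reads, so which gene it counts is uncertain. The 5 subunits of eIF2B, the exchange factor that reloads eIF2 with GTP, did not pass 1.5-fold in any of the 3 comparisons. Of all genes, 49.0% passed either way at 4 h over 0 h, 32.9% at 24 h over 0 h and 54.7% at 24 h over 4 h. The log2 ratios of the 5 subunits at 4 h against 0 h lay between -0.43 and 0.23. Some of these subunits passed on other scales. By total reads 1 was lower at 4 h and 1 higher at 24 h, each over 0 h, and 2 were higher at 24 h over 4 h. On the ribosomal scale 2 were lower at 24 h over 0 h. Eif2b5, the catalytic subunit, had the most reads and stood at 1274, 1119.6 and 1222. Per kilobase of transcript Eif2b2 (513, 494 and 607 normalized counts per kilobase) lay above Eif2b5 (499, 438 and 478). Per kilobase of all annotated exons Eif2b5 (491, 431 and 471) was the higher at 0 and 4 h and Eif2b2 (437, 421 and 517) at 24 h.

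The eIF3 scaffold, which holds the initiation complex together, had 1 of its 12 measured subunits higher and 0 lower at 4 h, where 25.4% of all genes were higher and 23.7% lower. Against genes of like length 3 were higher by transcript length and 0 by exon length. The log2 ratios ran from -0.31 to 0.77 with a median of 0.06. The 1 past the threshold was Eif3a, the largest subunit, at 6501, 11119.6 and 7109.5 normalized counts at 0, 4 and 24 h, 1.71-fold higher (1.66 to 1.77) at 4 h than at 0 h and 1.56-fold lower (1.52 to 1.61) at 24 h than at 4 h. Levels per kilobase of transcript are needed to set subunits beside each other. On that scale Eif3k (4297, 3557 and 5552 normalized counts per kilobase) led the 12 subunits at 0 and 24 h and Eif3h (3487, 3693 and 3682) at 4 h, while Eif3a had 1268, 2169.7 and 1387. Per kilobase of all annotated exons the order was another, with Eif3h (2801, 2967 and 2958) first at 0 and 4 h and Eif3f (2104, 2313 and 3179) at 24 h. By 24 h, 2 subunits stood past the threshold above 0 h, where 13.7% of all genes were higher and 19.2% lower. Eif3f stood at 6081, 6687 and 9189, 1.51-fold higher (1.47 to 1.56), and Eif3m at 1410.1, 1852 and 2149.6, 1.52-fold higher (1.43 to 1.63). Against genes of like length 0 subunits were higher by transcript length and 1 by exon length. On the ribosomal scale 0 were higher and 2 lower. Against 4 h, Eif3i (2335, 1955 and 3019) and Eif3k (3906, 3233 and 5047) were higher at 24 h, 1.54-fold higher (1.45 to 1.64) and 1.56-fold higher (1.49 to 1.64), which did not hold against genes of like length, where Eif3i was at -0.0047 in log2 ratio. The remaining subunits, Eif3b, Eif3c, Eif3d, Eif3e, Eif3g, Eif3h and Eif3l, stayed within 1.5-fold in every comparison.

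The cap complex and its relatives all stood above 0 h at 4 h, with 5 of 8 genes past 1.5-fold upward, 0 downward and a median log2 ratio of 0.64, where 25.4% of all genes were higher and 23.7% lower. By total reads 1 of the 8 passed, and against genes of like transcript length 2 passed and 7 of 8 stayed above 0. Eif4e3, a divergent cap-binding paralog, had the highest ratio of any member at 4 h, at 423, 1347 and 736 normalized counts at 0, 4 and 24 h, 3.18-fold higher (2.85 to 3.56). At 24 h it was 1.74-fold higher than at 0 h and 1.83-fold lower than at 4 h. Eif4e itself stood at 816, 1273 and 975, 1.56-fold higher (1.42 to 1.71) at 4 h. Eif4e2 (4EHP), which competes with eIF4E on caps of repressed mRNAs, stood at 1916, 2182 and 1980.3 and stayed within 1.5-fold throughout. Per kilobase of transcript, Eif4e2 had 552, 628 and 570.2 normalized counts per kilobase, Eif4e3 168, 536 and 293 and Eif4e 164, 255 and 195 in order of time. The order depended on the length used: on this scale Eif4e2 was the highest at all 3 times, whereas per kilobase of all annotated exons Eif4e2 had 256, 291 and 264 and Eif4e3 168, 536 and 293, so that Eif4e3 was the higher at 4 and 24 h. Eif4e was the lowest on both.

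The scaffold genes had their highest level at 4 h and their lowest at 24 h. Eif4g2, also called DAP5, which supports cap-independent initiation, stood at 20013, 31767 and 17964 normalized counts at 0, 4 and 24 h, 1.59-fold higher (1.56 to 1.62) at 4 h. Eif4g3 stood at 5110.0, 8043 and 3604 normalized counts at 0, 4 and 24 h, 1.57-fold higher (1.52 to 1.63). Eif4g1, the main scaffold, stood at 10648, 12668 and 6538, 1.19-fold higher (1.16 to 1.22) at 4 h and below the threshold there. All 3 were past the threshold downward at 24 h against 4 h, where 26.2% of all genes were higher and 28.5% lower. Eif4g1 was 1.94-fold lower, Eif4g2 1.77-fold lower and Eif4g3 2.23-fold lower. Against genes of like transcript length they were at -0.13, 0.01 and -0.33 in log2 ratio, short of 1.5-fold. Eif4g1 was 1.63-fold lower (1.58 to 1.68) at 24 h than at 0 h. The helicases of the complex differed. Eif4a2 stood at 3819, 5989 and 7699.5 normalized counts at 0, 4 and 24 h, 1.57-fold higher (1.5 to 1.64) at 4 h and 2.02-fold higher (1.94 to 2.09) at 24 h against 0 h, whereas Eif4a1 stood at 4056, 5076 and 4939 and stayed within 1.5-fold. Per kilobase, Eif4a1 had 2286, 2861 and 2784 and Eif4a2 1410.1, 2212 and 2843, with Eif4a1 the higher at 0 and 4 h and Eif4a2 slightly the higher at 24 h. The RNA-binding partners Eif4b and Eif4h, which stimulate the helicase, stood at 9840.0, 7204 and 7087 and 6505, 6956 and 7575, and Eif4a3, the helicase of the exon junction complex, at 1649, 1474 and 1699, none of them past the threshold in any comparison.

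**Figure D2:**
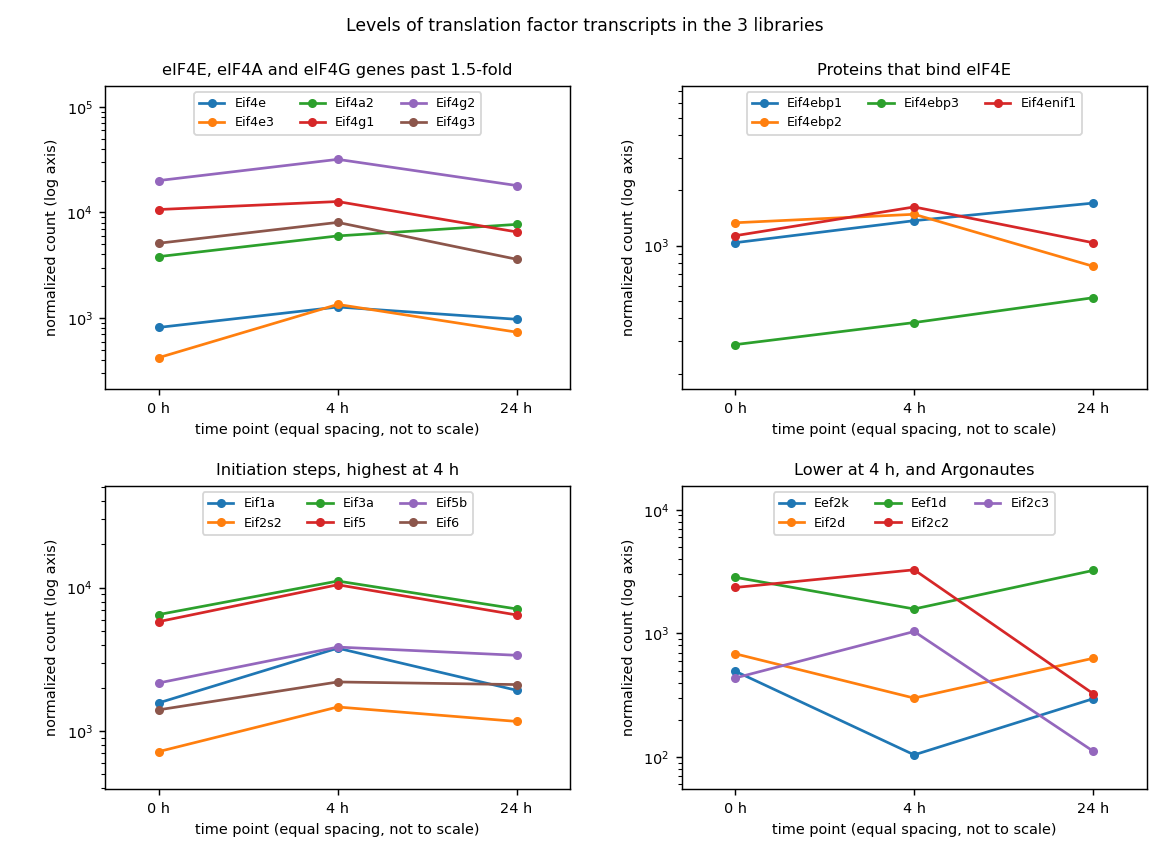
Normalized counts (log axis) at 0, 4 and 24 h, 1 library each and without error bars, for genes of 4 groups of members. Eif1a, Eif4e3 and Eif5 peak at 4 h, Eef2k and Eif2d have their lowest level there, Eif4ebp1 and Eif4ebp3 are highest at 24 h while Eif4ebp2 is lowest, and Eif2c2 and Eif2c3 are lowest at 24 h.

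All 3 factors of subunit joining and large-subunit release passed the threshold upward at 4 h, as did 25.4% of all genes. Eif5 also passed by total reads and against genes of like length, Eif5b did not pass against genes of like transcript length (log2 ratio 0.50) and Eif6 did not pass by total reads (0.49). Eif5, which triggers GTP hydrolysis on eIF2, stood at 5803, 10477 and 6457 normalized counts at 0, 4 and 24 h, 1.81-fold higher (1.75 to 1.87). Eif5b, the GTPase that joins the subunits, stood at 2170.3, 3856 and 3381 normalized counts at 0, 4 and 24 h, 1.78-fold higher (1.68 to 1.88). Eif6, which keeps free large subunits apart from small ones, stood at 1410.1, 2204 and 2113 normalized counts at 0, 4 and 24 h, 1.56-fold higher (1.46 to 1.68). At 24 h Eif5b was 1.56-fold higher than at 0 h, whereas Eif5 was within 1.5-fold of its 0 h level and 1.62-fold lower than at 4 h. Of the genes for the hypusine-carrying factor eIF5A, which helps stalled ribosomes along, the abundant Eif5a stood at 11364, 9342 and 11994 and did not pass the threshold, and the rare Eif5a2 stood at 185, 308 and 199, 1.67-fold higher (1.38 to 2.02) at 4 h than at 0 h and 1.55-fold lower at 24 h than at 4 h.

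Of the 7 elongation genes, 0 passed the threshold upward and 2 downward at 4 h, where 25.4% of all genes were higher and 23.7% lower. Eef2k, the calcium- and AMPK-responsive kinase that inhibits eEF2, had the lowest ratio of all members at 4 h, with 494, 104 and 296 normalized counts at 0, 4 and 24 h, 4.75-fold lower (3.75 to 6.06). It was 2.84-fold higher (2.23 to 3.66) at 24 h than at 4 h and 1.67-fold lower (1.46 to 1.91) than at 0 h, which fell short of 1.5-fold by total reads (log2 ratio -0.57) and against genes of like transcript length (-0.21). Its substrate Eef2, the translocase, stood at 54946, 45665 and 40588, 1.35-fold lower at 24 h than at 0 h and under the threshold in every comparison. Eef1a1, which delivers tRNA to the ribosome, had the highest level per kilobase of all 56 members with a length at all 3 times (34509, 35578 and 42515 normalized counts per kilobase) and stayed within 1.5-fold, at 61908, 63827 and 76271 normalized counts at 0, 4 and 24 h. Among the exchange factors that recharge eEF1A, Eef1d stood at 2841, 1575 and 3227 normalized counts at 0, 4 and 24 h, 1.80-fold lower (1.69 to 1.93) at 4 h than at 0 h and 2.05-fold higher (1.92 to 2.19) at 24 h than at 4 h. Eef1g stood at 1836, 1433 and 2342, 1.63-fold higher (1.52 to 1.75) at 24 h than at 4 h, and Eef1b2 at 6983, 6838 and 9224, within 1.5-fold throughout. Eef1e1, an adaptor of the tRNA synthetase complex, stood at 407, 504 and 431 and did not pass either. Reads of Eef1a1, Eif5a, Eif1 and Eif4a1 can be shared with near-identical paralogs or processed pseudogenes, and how they were assigned, or whether counting used strand, is not given in the sources used here. Eif3m, Eif4a2 and Eif5b overlap the annotated genes Ccdc73, Rfc4 and Rev1.

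The 4 members furthest from their 0 h level at 24 h were the Argonautes Eif2c2 and Eif2c3 on the lower side and Eif4a2 and Eif4ebp3 on the higher. At 24 h, 8 members were higher and 6 lower, 24.6% of the 57 against 32.9% of all 12481 genes (13.7% higher, 19.2% lower; 27.1% of genes of like abundance), and the members' median log2 ratio was 0.13. At 2-fold, 1 was higher, Eif4a2, and 2 were lower, Eif2c2 and Eif2c3, against 14.1% of all genes (4.95% higher, 9.1% lower). The inhibitors of eIF4E did not share a direction. Eif4ebp1 (4E-BP1) stood at 1037, 1367 and 1705 normalized counts at 0, 4 and 24 h, 1.64-fold higher (1.53 to 1.77) at 24 h than at 0 h. Eif4ebp3 stood at 288, 379.5 and 519 normalized counts at 0, 4 and 24 h, 1.80-fold higher (1.57 to 2.07). Eif4ebp2 was lower, at 1332, 1481 and 771 normalized counts at 0, 4 and 24 h, 1.73-fold lower (1.59 to 1.88) at 24 h than at 0 h and 1.92-fold lower (1.76 to 2.10) than at 4 h. The 24 h library thus held the highest level of the first and the third inhibitor and the lowest of the second. Eif4enif1 (4E-T), which carries eIF4E into the nucleus and into P-bodies, stood at 1132, 1625 and 1036, 1.57-fold lower (1.45 to 1.70) at 24 h than at 4 h. When ratios were recentred on the cytosolic ribosomal proteins, whose own median log2 ratio at 24 h against 0 h was 0.58, the split of members past 1.5-fold was 0 higher and 18 lower in place of 8 and 6, and total reads gave 10 and 3. On the ribosomal scale Eif4ebp1 was at 0.14 and Eif4ebp3 at 0.27 in log2 ratio, and against genes of like transcript length they were at 0.56 and 0.50, in each case short of 1.5-fold.

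The widest differences at 24 h were those of 2 Argonautes, which are not translation factors. Eif2c2 (Ago2), the one mammalian Argonaute known to cleave its target RNA efficiently, stood at 2350.5, 3267 and 326 normalized counts at 0, 4 and 24 h, 7.21-fold lower (6.48 to 8.03) at 24 h than at 0 h and 10.02-fold lower (9.01 to 11.2) than at 4 h. Eif2c3 (Ago3) stood at 436, 1036 and 112 normalized counts at 0, 4 and 24 h, 2.38-fold higher (2.12 to 2.67) at 4 h than at 0 h and 3.9-fold lower (3.22 to 4.76) at 24 h than at 0 h, and 9.27-fold lower (7.72 to 11.2) at 24 h than at 4 h. Eif2c1 (Ago1) stood at 1322, 1180.5 and 836, 1.58-fold lower (1.46 to 1.72) at 24 h than at 0 h, and Eif2c4 (Ago4) at 544, 329 and 481, 1.65-fold lower (1.43 to 1.92) at 4 h than at 0 h.

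From 4 h to 24 h, the scaffolds Eif4g1, Eif4g2 and Eif4g3 and the factors Eif1a, Eif3a and Eif5 were on the lower side and Eef2k, Eef1d and Eif2d on the higher. At 24 h, 7 members were higher and 12 lower than at 4 h, 33.3% against 54.7% of all 12684 genes (26.2% higher, 28.5% lower; 49.7% of genes of like abundance), with a median log2 ratio of 0.00. At 2-fold, 3 were higher and 3 lower, against 32.3% of all genes (14.4% higher, 17.9% lower). Total-read scaling gave 18 higher and 6 lower in this comparison, and recentring on ribosomal proteins 1 and 23. Under every scaling and recentring tried, 5 of the 19 stayed past 1.5-fold in the same direction, and they were Eef2k upward and Eif1a, Eif2c2, Eif2c3 and Eif4ebp2 downward. In the comparison of 4 h with 0 h, 9 of 17 did so, Eif1a, Eif2s2, Eif4e3, Eif5 and Eif2c3 upward and Eef1d, Eef2k, Eif2d and Eif2c4 downward. In that of 24 h with 0 h, 3 of 14 did so, Eif2c2, Eif2c3 and Eif4ebp2, all downward.

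Transcript length moved with these ratios over the whole tables. Among 9608 genes with a mean of at least 100 reads, the median log2 ratio at 24 h against 4 h was 0.63 in the shortest of 6 length bins (up to 1611 bases) and -0.83 in the longest (5441 bases and over). Over 0 h the same medians were 0.35 and -0.53 at 24 h, and -0.27 and 0.32 at 4 h. The 56 members with a length showed the same trend. Their Spearman's rho between length and ratio was -0.517 for 24 h over 4 h, -0.509 for 24 h over 0 h and 0.264 for 4 h over 0 h. Over all these genes it was -0.496, -0.491 and 0.225. These are descriptions across genes that share the same 3 libraries. The 9 members in the longest bin, which are Eef2k, Eif4g1, Eif4g2, Eif4g3, Eif5b and the 4 Argonautes, had a median of -0.82 at 24 h against 4 h, beside -0.83 for all genes of that bin. Set against genes of like length, Eif4g1 was at -0.13, Eif4g2 at 0.01 and Eif4g3 at -0.33 in log2 ratio at 24 h against 4 h, none of them past 1.5-fold (with exon lengths Eif4g1 was at -0.64 and passed), while Eif2c2 was at -2.49 and Eif2c3 at -2.37. The longest bin runs to 123179 bases, and Eif2c2 (13800 bases) and Eif2c3 (15595 bases) are far longer than Eif4g1 (5444 bases). Its median is thus only a loose match in length for Eif2c2 and Eif2c3. Eef2k, which is also long at 6580 bases, was at 2.33 against genes of its length in the same comparison and at -2.56 at 4 h against 0 h. Eif4ebp2 was at -1.57 with its 1422-base transcript and at -0.82 with the 5784 bases of all its annotated exons. At 4 h against 0 h, 12 of the 17 members past 1.5-fold stayed past it against genes of like transcript length. Eif4g2 (0.34) and Eif4g3 (0.33) were among those that did not. At 24 h against 0 h, 7 of the 14 stayed, and Eif4g1 (-0.18) and Eif2c1 (-0.13) were among those that did not. Whether length plays a part in these differences was not tested.

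**Figure D3:**
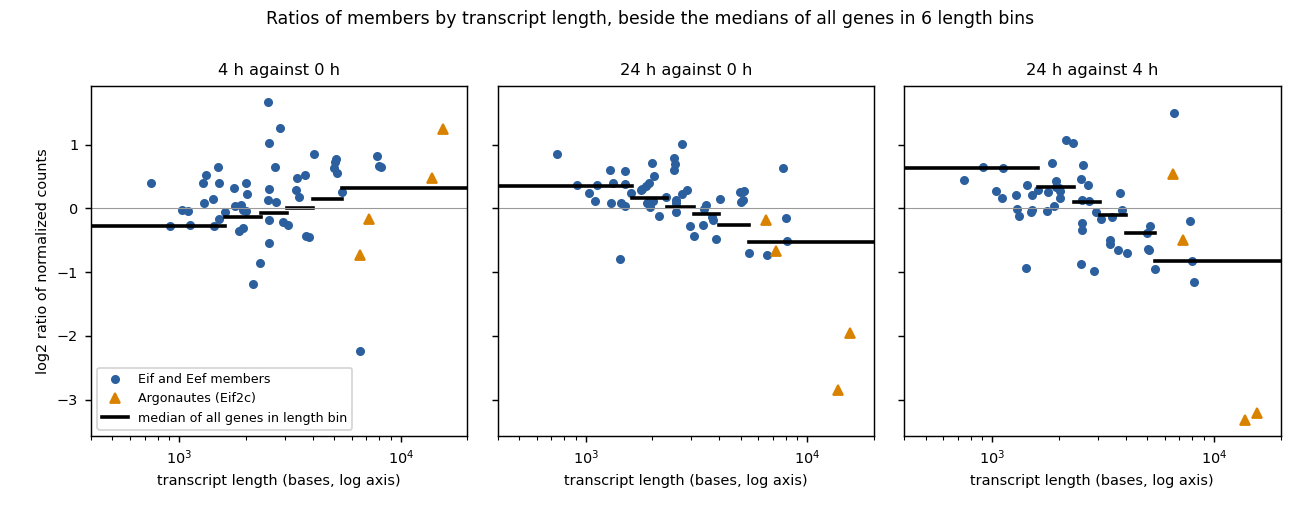
Log2 ratio of each member (circles, Argonautes as triangles) against the length of its longest annotated transcript (log axis), for the 3 comparisons, with black bars at the median of all genes in 6 length bins. The bars slope upward for 4 h over 0 h, where the longest bin stands at 0.32, and downward for 24 h over 4 h, where it stands at -0.83. Eef2k for 24 h over 4 h and Eif2c2 and Eif2c3 at 24 h lie far from the bar of their bin.

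Regulators outside the member list were read from a list of 60 other translation control genes, all of which had values. At 4 h, 12 passed 1.5-fold above 0 h and 3 below, beside the 25.4% and 23.7% of all genes given above, and by total reads 9 and 12. Among genes with a mean of at least 100 reads, the 3 furthest up were Eif2ak2, the interferon-induced kinase PKR that phosphorylates eIF2, at 1167, 6787 and 1141 normalized counts at 0, 4 and 24 h and 5.81-fold higher (5.47 to 6.19), Rictor, of mTOR complex 2, at 841, 2511 and 741 and 2.98-fold higher (2.76 to 3.23), and Fmr1, a translational repressor, at 883, 1964 and 939 and 2.22-fold higher (2.05 to 2.41). Below that mean, the termination factor paralog Gspt2, with 17, 65 and 56 reads at 0, 4 and 24 h, stood between Eif2ak2 and Rictor, 5.20-fold higher (3.01 to 9.46) at 4 h than at 0 h, and was named after its values were seen. The 3 furthest down were the mitochondrial initiation factor Mtif3 (261, 118 and 249.8), 2.21-fold lower (1.74 to 2.82), the inhibitor of poly(A)-binding protein Paip2b (889, 411 and 605), 2.16-fold lower (1.90 to 2.46), and Mlst8, a subunit of both mTOR complexes (374, 244 and 265), 1.53-fold lower (1.29 to 1.83). The other 3 eIF2 kinases stayed within 1.5-fold at 4 h, with Eif2ak1 (HRI) at 2128, 2061 and 1808, Eif2ak3 (PERK) at 1443, 1425 and 1443 and Eif2ak4 (GCN2) at 1320.5, 908 and 763. At 24 h Eif2ak4 was past the threshold, 1.73-fold lower (1.59 to 1.88) than at 0 h.

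By 24 h, 6 of these 60 were higher and 8 lower than at 0 h, beside 13.7% and 19.2% of all genes, and total reads gave 13 and 6. The 3 furthest down belong to mTOR signalling. Against genes of like transcript length none of them passed 1.5-fold (log2 ratios -0.46 for Mtor, -0.37 for Rptor and -0.40 for Tsc2). Mtor stood at 1441, 1310.0 and 727, 1.98-fold lower (1.82 to 2.15), its partner Rptor at 1027, 1039.6 and 549.7, 1.87-fold lower (1.70 to 2.06), and the upstream inhibitor Tsc2 at 1903, 1387 and 1004, 1.90-fold lower (1.76 to 2.04). Gspt2 was again past the threshold, 2.90-fold higher (1.66 to 5.32), on few reads. Among genes with a mean of at least 100 reads, the 3 furthest up were a pair of inhibitors and a mitochondrial factor. Pdcd4, which blocks the helicase eIF4A, stood at 542, 409 and 1131, 2.09-fold higher (1.89 to 2.3), and Ddit4 (REDD1), which restrains mTOR complex 1, at 532, 432 and 1084, 2.04-fold higher (1.84 to 2.25). Tufm, the mitochondrial elongation factor, stood at 128, 91.4 and 251, 1.96-fold higher (1.6 to 2.41). Relative to 4 h, 8 were higher and 16 lower at 24 h, beside 26.2% and 28.5% of all genes. This became 13 and 9 by total reads and 3 and 31 on the ribosomal scale. Under the same minimum of reads, the furthest up were Pdcd4, 2.77-fold higher (2.45 to 3.13), Tufm, 2.74-fold higher (2.11 to 3.60), and Ddit4, 2.51-fold higher (2.23 to 2.84). The furthest down were Eif2ak2, 5.95-fold lower (5.61 to 6.32), Rictor, 3.39-fold lower (3.13 to 3.67), and Larp1, which holds back mRNAs of the ribosomal machinery, at 4139.8, 8368 and 2611 and 3.20-fold lower (3.07 to 3.34).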

How the data were processed

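The data are 3 deposited tables, each of which compares 2 of the 3 libraries. Per the submitters' processing notes, DESeq2 was among the tools and mm10 was the build; no aligner, counting program or annotation is named there. The deposited signal values were taken as read counts divided by a size factor of the pair, since 100% of them were whole multiples of their column's step within 0.001 reads, and whole reads were recovered from them. The authors' log2 fold changes, later over earlier, were used only as an alternative. In the table of 24 h against 0 h the first signal column is headed 4 h; its recovered reads are identical to the 0 h reads of another table in 12310 of 12310 genes. That 1 column was left without a sample and served for nothing else. The table's 20 repeated lines were dropped.

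Reads were scaled by the median of ratios over 12451 genes (size factors 1.07 at 0 h, 0.788 at 4 h and 1.22 at 24 h). Log2 ratios used a pseudocount of 1, and intervals are 95% Clopper-Pearson. With 1 library per time no count model or test was fitted. edgeR 4.0.16 gave TMM factors as an alternative. Transcript lengths are those of the longest GENCODE M21 transcript paired with a curated RefSeq mRNA. The code of the calls was run on simulated Poisson counts with 200 genes changed at 4 h alone. Those counts held no trend with length and far fewer changed genes than the libraries. The run therefore checks the code and does not bear on the reported calls. Members and lists were chosen with earlier results of these data known. Genes were named where a ratio reached 1.5-fold with a mean of at least 100 reads, plus the most abundant member of each other role, and the 3 furthest up and down of the further list; other members were named to complete their role groups.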

Additional observations from a re-analysis of the deposited data

How the results depend on the processing

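For 4 h over 0 h, 24 h over 0 h and 24 h over 4 h, in this order, 17, 14 and 19 members were past 1.5-fold. At 2-fold they numbered 6, 3 and 6, and by the authors' deposited log2 fold changes, whose sizes ran below the plain ratios, 11, 4 and 12. At 24 h against 0 h, 8 had their whole counting interval past 1.5-fold, and recentring on genes of like transcript length or exon length, added after the trend with length was seen, left 7 and 8. The members' median log2 ratio was 0.19, 0.13 and 0.00. With total reads it was 0.029, 0.30 and 0.32. Recentred on ribosomal proteins it was -0.45 at 24 h against 0 h, a reversal, and -0.51 at 24 h against 4 h. Recentred by transcript length and exon length it was -0.16 and -0.16 at 24 h against 4 h. Total reads moved the median of all genes by -0.15, 0.16 and 0.32, and ribosomal recentring by -0.58 and -0.50 in the comparisons with 24 h. At 4 h against 0 h total reads gave 7 members higher and 7 lower in place of 13 and 4. Of the 60 other genes, those past the threshold numbered 15, 14 and 24, at 2-fold 8, 3 and 11, and at 24 h against 0 h 35 on the ribosomal scale (1 higher, 34 lower) and 9 by transcript length. Of the single genes past 1.5-fold, those that reversed did so at 24 h against 4 h. By transcript length these were Eif3i (-0.0047), Eif4g2 (0.0054), Rps6kb1 (0.16), Dohh (-0.014) and Ppp1r15b (0.14), and by exon length Eif3a (0.079) and Rps6kb1 (0.051). edgeR TMM, the authors' own size factors, the minimum of 100 reads and leaving out the Argonautes gave member counts within 1.5 times of these, and pseudocounts of 0.5 and 5 moved no median beyond counting error. The authors' size factors could not be applied at 24 h against 0 h, since 1 of the columns has no sample. The cause of these shifts was not tested. No paired analysis was possible because each time point has 1 library, and none could be left out. Depth limits the rarest members, with 82 reads of Eef2k at 4 h.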

Other observations

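Among the mitochondrial translation factors of the further list, Gfm1, an elongation factor, stood at 1299, 1222 and 1238 normalized counts at 0, 4 and 24 h, Gfm2, which recycles mitochondrial ribosomes, at 665, 604 and 554 and Mtif2, an initiation factor, at 572, 825 and 678, all within 1.5-fold in each comparison. Tsfm, the exchange factor of Tufm, stood at 318, 228 and 405, 1.77-fold higher (1.49 to 2.11) at 24 h than at 4 h. A termination factor and a recycling factor were highest at 4 h. Etf1, which reads stop codons, stood at 5075, 9662 and 4350.2 normalized counts at 0, 4 and 24 h, 1.90-fold higher (1.84 to 1.97) at 4 h than at 0 h, and Abce1, which splits ribosomes, at 1992, 3528 and 2348, 1.77-fold higher (1.67 to 1.87). These genes were chosen after their values were seen.

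Of the X-linked and Y-linked copies of the eIF2 gamma subunit, left out of the members, the Y-linked one separated the libraries. Eif2s3x did not pass 1.5-fold in any comparison and had 297, 159 and 351 reads at 0, 4 and 24 h, and Eif2s3y had 2, 2133 and 2925. Eif2s3y was thus near absent from the 0 h library, as was the Y-linked Ddx3y.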
